A study of Xenopus laevis with 8 samples.

Results

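The injected sides of *Xenopus laevis* neurulae depleted of the Suv4-20h histone methyltransferases were compared with the injected sides of control morphants. The comparison rests on 4 of the 8 Affymetrix arrays of the study, the 2 labelled suv420 morpholino, injected side and the 2 labelled Control morpholino, injected side, matched by replicate number. The 4 arrays of the uninjected sides serve only to show where the injected sides stand apart. Double morphants received morpholinos that block translation of the xSuv4-20h1 and xSuv4-20h2 mRNAs, and control morphants received an unrelated morpholino. The labels give 40 ng in total for every embryo, placed in neighbouring animal or vegetal blastomeres on the injected side, while the supplementary methods describe a single blastomere and a larger dose, and the files do not settle which applies to these arrays. Every array measured RNA of 6 pooled embryo sides cut along the midline, so no value belongs to a single embryo. The supplementary methods give 2 independent experiments for the arrays. The replicate numbers were read as these experiments, which the labels do not say. Both injected groups carried a morpholino on the side measured. They also came from different pools of embryos, whose uninjected sides differed in some genes too, so the morpholino and the pool cannot be told apart within an experiment.

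Suv4-20h enzymes add further methyl groups to lysine 20 of histone H4 (H4K20) once the first has been set by the methyltransferase Kmt5a. Trimethylated H4K20 marks silent heterochromatin, whereas the dimethylated form is widespread and is known in mammals to bind the origin recognition complex, which licenses DNA replication. *Xenopus laevis* carries most genes as a pair of homeologs from its ancestral genome duplication, named .L and .S, and many of these have probe sets of their own on the array.

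All values are GCRMA expression values on the log2 scale, as the authors deposited them. Array medians lay between 5.09 and 5.19 and 31.7% of values were under 2.5, close to the lowest value on the arrays. A group mean under 2.5 was therefore treated as a floor. Tests covered 8220 genes whose mean reached 4 in any of the 4 groups, with the most variable probe set standing for each gene. Some genes passed only through a single group in which they were high. For zar1.S, pou5f3.3.L and fitm2.L this was the injected sides of double morphants, and for haus4.L those of control morphants. For such a gene the filter itself favours a difference between groups. The number of arrays limits the precision: an exact permutation test of 2 against 2 arrays cannot give a two-sided p below 0.333, so tests were made by a linear model over all genes with limma. The neural genes sox2.L and sox3.L and the epidermal keratin krt12.4.L, which mark the 2 main parts of the neurula ectoderm, were well above the floor on all 4 injected arrays (sox2.L at 11.36 and 11.02 in double morphants against 11.42 and 10.75 in control morphants, krt12.4.L at 13.59 and 13.18 against 13.38 and 13.06). Muscle genes separated the experiments instead of the morphants. The median of 33 genes of muscle and somites was 8.53 and 7.38 in double morphants and 8.77 and 6.82 in control morphants on the injected sides (experiments 1 and 2), against 8.81 to 9.06 on the 4 uninjected arrays, and the part of this shift in other values was not tested.

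The injected sides of double morphants differed from those of control morphants in both directions. With the study's threshold, a local fdr (the estimated chance that a gene with this statistic is unchanged) under 0.2, 198 genes were higher (2.41% of those tested) and 262 lower (3.19%) in double morphants. All 460 (5.6%) differed the same way in both experiments, and their groups did not overlap. Groups that did not overlap were common among all genes, with 20.2% higher and 23.5% lower, so this alone singles out no gene. The called differences were between 0.62 and 3.94 on the log2 scale for the genes higher in double morphants (median 1.22) and between 0.60 and 3.40 for the genes lower in double morphants (median -1.08). Changes of more than 1 on the log2 scale were found in 612 genes (7.45%), 332 higher and 280 lower.

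The calls were checked against a stricter rule. A Benjamini-Hochberg adjusted p under 0.05 without regard to the experiment was reached by 19 higher and 15 lower genes (0.231% and 0.182%). Both injected groups of one experiment deviated together from their group means (r = 0.80 across 8220 genes), and with the experiment as a block the same threshold was passed by 590 higher genes (7.18%) and 673 lower genes (8.19%), among them all 460. The block and the local fdr together gave 106 higher (1.29%) and 118 lower genes (1.44%), and 173 of the 460 were among them. In data simulated with paired arrays and 200 changed genes among 8220, the adjusted p with a block recovered 70.6% of genes shifted by 1 log2 unit and 97.7% of genes shifted by 2, and 4.97% of its calls were wrong. The local fdr without a block recovered more, 92.2% and 99%, and 67.8% of its calls were wrong. In these data all groups shared the same shift per experiment, as the block assumes, so the comparison favours the block. In data simulated with independent arrays the adjusted p with a block recovered 1.6% and 59.3%, with 4.09% of its calls wrong. The local fdr without a block recovered 67.7% and 93.2% there, with 45.4% of its calls wrong. The counts also moved when an array was left out: without replicate 2 of the double morphants 57 genes were higher and 130 lower, without replicate 1 of the double morphants 197 and 125, without replicate 1 of the control morphants 90 and 109, and without replicate 2 of the control morphants 163 and 85. Of 88 called genes chosen for naming, 29 kept their call whichever injected array was left out, among them rilp.S, trim7.L, cdc42se2.S, sort1.S, fitm2.L, acsl4.S, creb1.S, cdca8.L, incenp.L, kif20b.S, rfc4.L, cdc7.L, itpa.S, gfpt2.L, ankrd10.S, gtf2a1.L, haus4.L, aldh1a2.L, eif4e2.L and rpl27a.L. Another 8 lost theirs whichever array was left out, namely cdc42se2.L, tspan1.S, fen1.L, cdc6.S, id2.L, grb2.L, dmrta1.S and rps4x.S, and 51 lost theirs without 1 to 3 of the arrays. Unless the block is named, a gene is written below as higher, lower, risen or fallen where its local fdr was under 0.2, and the adjusted p with the experiment as a block (blocked adjusted p) is given for genes that passed only there.

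**Figure D1:**
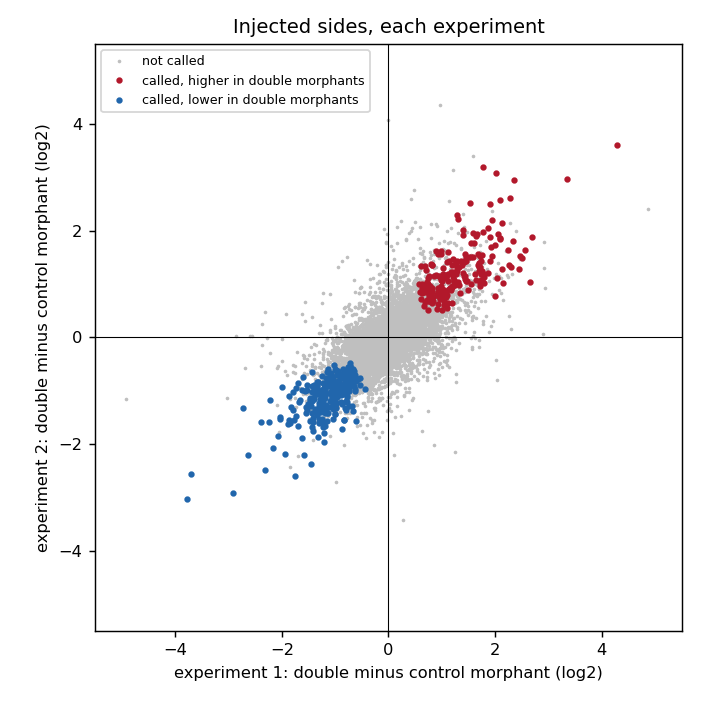
Difference of injected sides, double minus control morphants, in experiment 1 (x axis) and experiment 2 (y axis), both on the log2 scale, for the 8220 genes tested. The 198 called higher genes (red) lie in the upper right and the 262 called lower genes (blue) in the lower left quadrant, and grey points are genes not called.

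The largest increase was that of rilp.S, whose protein binds the small GTPase Rab7 on late endosomes and lysosomes and links them to the dynein motor. It was measured at 7.13 and 7.88 in double morphants against 2.85 and 4.27 in control morphants. Its log2 fold change of 3.94 (standard error 0.55, limma adjusted p = 0.0598) equals a 15.4-fold higher signal. The second was trim7.L, which encodes a ubiquitin ligase, at 8.68 and 9.23 in double morphants against 5.33 and 6.25 in control morphants (log2 fold change 3.16, standard error 0.40, adjusted p = 0.0492). The Cdc42 effector gene cdc42se2.S was at 6.59 and 7.54 in double morphants against 4.57 and 4.46 in control morphants (2.55, standard error 0.31, adjusted p = 0.0492), and its homeolog cdc42se2.L rose with it (1.86, standard error 0.38). The arrays of double morphants lay clearly above both control arrays for each of these genes, with a gap of more than 1 on the log2 scale between the nearest arrays.

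Of the genes above, rilp.S is the one whose product acts in membrane traffic. Of 54 genes of Rab GTPases, endosomes and vesicle traffic, 7 rose, 0 fell and 47 were not called, against 2.41% higher and 3.19% lower of all genes, with a median log2 fold change of 0.15 against -0.01 over all genes. The median of 23 reference genes was higher still, at 0.19. The risen members include trim7.L and both cdc42se2 copies, which are not set out above as traffic genes. The list holds rilp.S, trim7.L, cdc42se2 and dynlt3, which the study had named or which were known from earlier work on these arrays, so its count is not independent evidence. The dynein light chain gene dynlt3.L was at 5.98 and 6.57 in double morphants and at 3.84 and 4.43 in control morphants (log2 fold change 2.14, standard error 0.34). The sorting nexin gene snx5.L was higher by 0.95 (standard error 0.16). The gene rab7a.L, whose product is the partner of Rilp, had a log2 fold change of 0.95 (blocked adjusted p = 0.042) and was not called. Outside the list, the sorting receptor gene sort1.S was at 6.33 and 6.31 in double morphants and at 4.28 and 4.37 in control morphants (2.00, standard error 0.18, adjusted p = 0.0486). Its control injected sides differed from their uninjected sides by -0.45 (called), and its double morphant injected sides from theirs by 0.97 (not called).

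Some genes of lipid droplets were higher as well. The gene fitm2.L, which encodes an endoplasmic reticulum protein needed to form lipid droplets, was at 4.91 and 4.24 in double morphants against 2.22 and 2.36 in control morphants. The control values lie at the floor, so the 4.89-fold difference (log2 fold change 2.29, standard error 0.24, adjusted p = 0.0492) is a lower bound: fitm2.L was at least 4.89-fold higher. Of 39 genes of glucose and lipid storage, 3 rose, 0 fell and 36 were not called (median 0.19), again against 2.41% and 3.19% of all genes. The study had listed fitm2 among its most raised genes on these arrays, so this count is not independent evidence either. The other risen members were the lipid droplet coat gene plin3.S (1.1, standard error 0.21) and the glycolytic enzyme gene pgk1.L (1.94, standard error 0.37). With the experiment as a block, 5 members were higher and 2 lower, where 7.18% and 8.19% of all genes were. These added the coat genes plin3.L (1.54, blocked adjusted p = 0.033) and plin2.L (1.36, blocked adjusted p = 0.033), while dgat1.L, which encodes the enzyme of the last step of triglyceride synthesis, differed by -0.88 (blocked adjusted p = 0.028) and ugp2.L, which makes UDP-glucose for glycogen, by -1.46 (blocked adjusted p = 0.044). The fatty acid CoA ligase gene acsl4.S, which is not in the list, was at 5.35 and 5.28 in double morphants and at 3.26 and 3.41 in control morphants (1.98, standard error 0.22, adjusted p = 0.0492). A second probe set of acsl4.S differed by 1.63, but its brightest, at 9.02 in double morphants and 8.89 in control morphants on average, by 0.13.

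**Figure D2:**
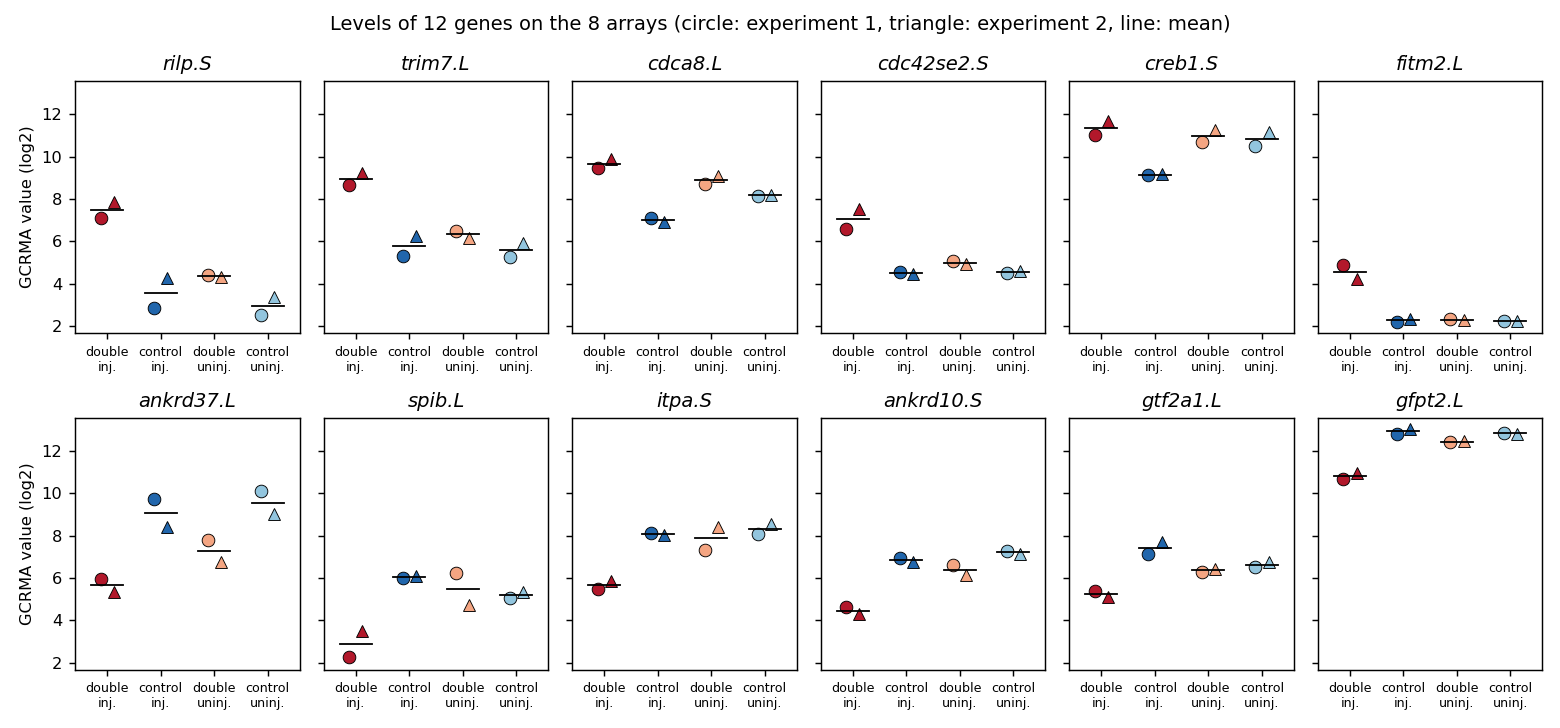
GCRMA values (log2, y axis) of 6 genes that rose (upper row) and 6 that fell (lower row) on the 8 arrays, with injected sides of double and control morphants in dark and uninjected sides in light colours; circles are experiment 1, triangles experiment 2 and lines group means. Both double morphant injected arrays lie beyond both control injected arrays in every panel, and fitm2.L is at the floor in the other 3 groups.

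Among genes of mitosis more were called higher than lower in double morphants, and most were not called. Of 89 genes of mitosis and cyclins, 9 rose, 1 fell and 79 did not pass the test, against 2.41% and 3.19% of all genes, and the median was 0.14. The largest change was in cdca8.L, which encodes borealin of the chromosomal passenger complex, the kinase complex that corrects kinetochore attachments and guides cytokinesis. It was at 9.47 and 9.87 in double morphants and at 7.12 and 6.91 in control morphants (log2 fold change 2.65, standard error 0.22, adjusted p = 0.047). Its 2 brighter probe sets moved the same way by less, 0.82 and 0.60. The gene of another passenger subunit, incenp.L, was at 10.79 and 11.05 in double morphants against 9.25 and 9.27 in control morphants (1.66, standard error 0.17, adjusted p = 0.0486). The mitotic kinesin gene kif20b.S was at 9.18 and 9.21 in double morphants against 7.27 and 7.32 in control morphants (1.90, standard error 0.28). For incenp.L and kif20b.S the arrays of 1 group differed far less from each other than from the other group. The control injected sides differed from their uninjected sides by -1.16 for cdca8.L and -0.47 for incenp.L (both called). In double morphants these side differences were 0.78 and 0.76 (not called). For kif20b.S the double morphant side difference was called (1.79) and the control one was not (0.63).

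The remaining risen genes of the list act around the mitotic spindle. The cyclin gene ccnb3.S was higher by 2.03 (standard error 0.38) at the probe set tested and by 0.21 at a brighter one, and its homeolog ccnb3.L differed by 0.56 (blocked adjusted p = 0.048). The spindle assembly factor gene tpx2.L, at 10.71 and 11.11 in double morphants and at 9.81 and 9.94 in control morphants, rose by 1.03 (standard error 0.19), and the gene of the kinase that its product activates, aurka.L, by 0.88 (standard error 0.20). Their homeologs tpx2.S and aurka.S, not called, differed by 0.19 and -0.27. The centromeric histone gene cenpa.L rose by 1.00 (standard error 0.22), gtse1.L by 1.02 (standard error 0.20) and cdk1.S, the kinase gene of mitotic entry, by 0.87 (standard error 0.17). With the experiment as a block, 19 members were higher and 8 lower, against 7.18% and 8.19% of all genes. The higher members then included cdk1.L (0.71), the A-type cyclin ccna2.S (0.83), the checkpoint kinase gene bub1b.L (1.1) and the spindle kinesin gene kif11.L (0.92). The 8 lower members, a share close to that of all genes, included ccne1.L (-0.97) and ccne1.S (-0.54), which encode cyclin E, cdk2.L (-0.64) and ccnd1.L (-0.57). The single called one was the transcription factor gene e2f1.L, which fell by 1.18 (standard error 0.22), to 5.13 and 5.16 in double morphants against 6.17 and 6.48 in control morphants.

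Among genes of DNA replication more were called lower than higher, and most were not called. Of 66 genes, 3 rose, 7 fell and 56 did not pass the test, against 2.41% and 3.19% of all genes, 46 had a negative log2 fold change, and the median was -0.36 (-0.35 in experiment 1 and -0.30 in experiment 2) against -0.01 over all genes. A median of this size was not particular to replication. It was -0.36 for early mesoderm and -0.34 for endoderm, while other lists leaned higher, such as organizer, notochord and floor plate (0.30). The kinase gene cdc7.L, whose product fires licensed origins, fell most, to 3.06 and 3.16 in double morphants against 5.13 and 5.01 in control morphants (log2 fold change -1.96, standard error 0.25, adjusted p = 0.0527). Both homeologs of the replicative helicase subunit mcm4 fell: mcm4.S was at 6.63 and 5.92 in double morphants against 8.04 and 7.68 in control morphants (-1.59, standard error 0.32), and mcm4.L was at 8.79 and 9.07 against 9.98 and 9.96 (-1.04, standard error 0.18). The helicase subunit gene mcm6.2.S fell by 1.15 (standard error 0.22), gins1.S, a subunit gene of the active helicase, by 0.96 (standard error 0.19), the licensing factor gene cdc6.S by 0.74 (standard error 0.15) and the flap endonuclease gene fen1.L by 0.72 (standard error 0.18). Their homeologs cdc6.L and fen1.S, not called, differed by 0.64 and -0.70, so the copies of cdc6 went opposite ways.

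With the experiment as a block, 5 replication genes were higher and 19 lower, against 7.18% and 8.19% of all genes. Subunits of the origin recognition complex were among the lower ones, with differences of -1.36 for orc1.L (5.68 and 6.44 in double morphants against 7.21 and 7.63 in control morphants), -1.16 for orc4.L and -0.76 for orc2.S, while orc3.S differed by 0.49. The initiation factor gene mcm10.L (-1.08), the homeolog mcm6.2.L (-1.09) and the single-strand binding protein gene rpa1.L (-1.03) were lower as well. The 3 risen genes were of different kinds. The clamp loader subunits Rfc4 and Rfc5 had higher signals, rfc4.L at 9.79 and 9.81 in double morphants against 8.12 and 8.45 in control morphants (1.52, standard error 0.18, adjusted p = 0.0492) and rfc5.L at 7.16 and 7.83 against 5.86 and 5.61 (1.76, standard error 0.33). Between uninjected sides both were called higher as well, rfc4.L by 0.90 and rfc5.L by 0.96, and the difference between the comparisons was not called. The homeolog rfc5.S differed by -0.44 and was not called. The gene of the large ribonucleotide reductase subunit, rrm1.L, rose by 1.54 (standard error 0.30) at the probe set tested and differed by 0.41 at a brighter one, while the small subunit gene rrm2.2.L differed by -0.58.

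**Figure D3:**
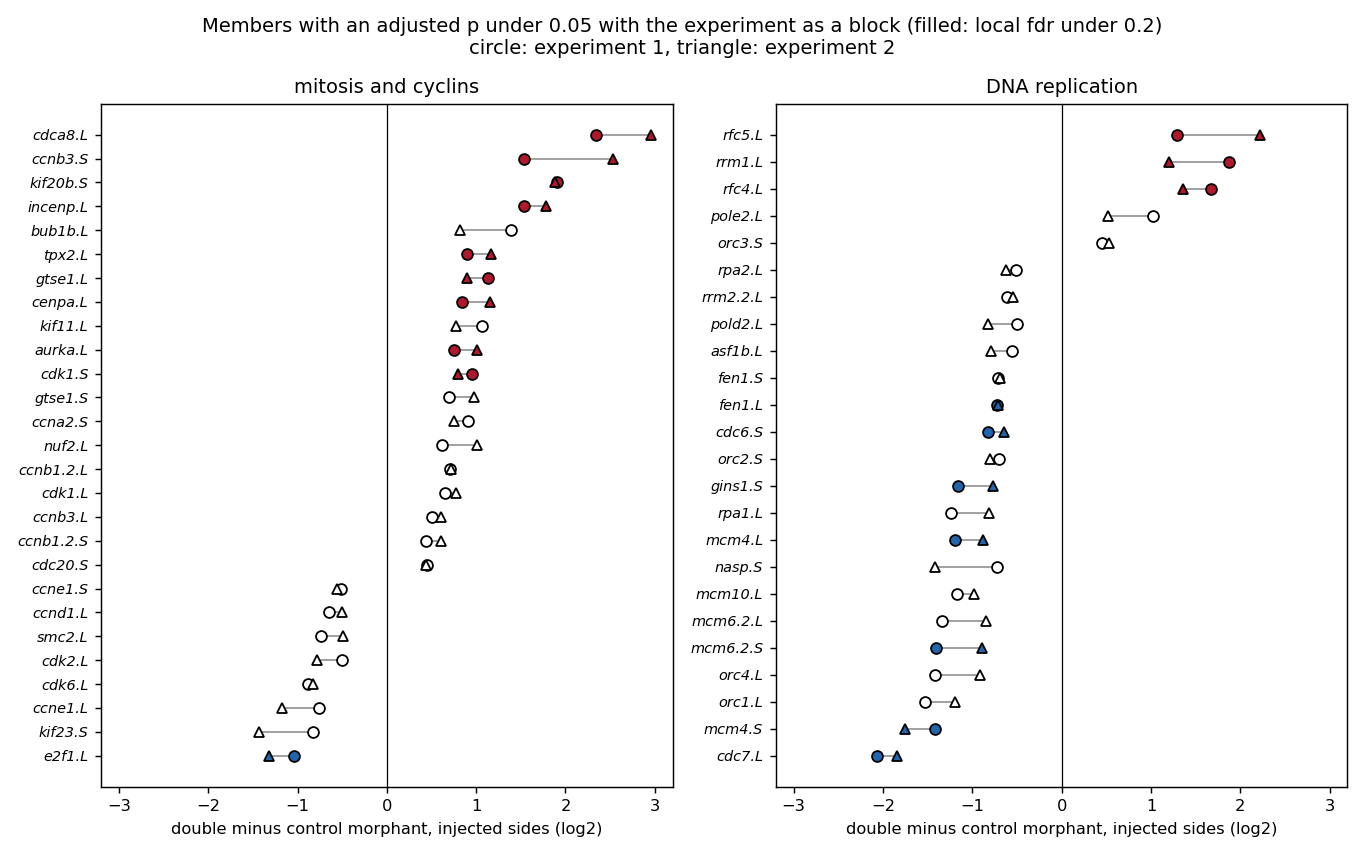
Difference of injected sides, double minus control morphants (log2, x axis), of the members of the mitosis and the DNA replication list with a blocked adjusted p under 0.05; circles are experiment 1, triangles experiment 2, and filled symbols have a local fdr under 0.2. Of the mitosis genes 19 lie right of 0 and 8 left of it, and of the replication genes 5 lie right and 19 left.

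The decreases outside these lists were led by ankrd37.L, a gene of a small ankyrin repeat protein, at 5.98 and 5.37 in double morphants against 9.76 and 8.4 in control morphants (log2 fold change -3.40, standard error 0.62, adjusted p = 0.0711). The Ets factor gene spib.L, a marker of early myeloid cells, was at 2.29 and 3.53 in double morphants against 5.98 and 6.09 in control morphants (-3.13, standard error 0.59), and its other probe set fell by 2.88. The itpa.S gene, whose product removes deaminated purine nucleotides, was at 5.47 and 5.84 in double morphants against 8.12 and 8.05 in control morphants (-2.43, standard error 0.39). In these genes no double morphant array came within 2 log2 units of a control array. The hexosamine pathway enzyme gene gfpt2.L was at 10.66 and 10.95 in double morphants against 12.82 and 13.03 in control morphants (-2.12, standard error 0.17, adjusted p = 0.047), and its other probe set fell by 1.90. The ankyrin repeat gene ankrd10.S was at 4.65 and 4.29 in double morphants against 6.97 and 6.77 in control morphants (-2.40, standard error 0.23), with a difference of -0.91 at a brighter probe set, and gtf2a1.L, which encodes a subunit of the general transcription factor TFIIA, was at 5.38 and 5.09 against 7.13 and 7.69 (-2.17, standard error 0.24). The gene haus4.L, which encodes a subunit of the augmin complex of the spindle, was at 3.2 and 3.0 in double morphants against 4.66 and 5.37 in control morphants (-1.92, standard error 0.26). The uninjected sides, at 2.78 and 2.84 in double morphants and 2.90 and 3.12 in control morphants, resembled the injected sides of double morphants, and for haus4.L the injected sides of control morphants stood apart (2.00 above their uninjected sides, called).

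Some large decreases were not shared by all probe sets of their gene. The retinoic acid synthesis gene aldh1a2.L was at 8.54 and 8.26 in double morphants against 11.46 and 11.17 in control morphants at its most variable probe set (log2 fold change -2.92, standard error 0.19, adjusted p = 0.0389). Further probe sets fell by 2.08 and by 1.37, but the brightest differed by 0.58 and 2 others by 0.79 and 0.94, so the direction of this gene is not settled by the array. For eif4e2.L, a gene of a cap-binding protein, the most variable probe set fell by 1.76 and a brighter one differed by 0.25. Over the 460 called genes, 121 had another probe set above the filter. The brightest of these had the same direction in 95 genes and the opposite one in 26, with a median of 0.40 in the called direction against 1.2 for the probe set tested. The other 339 called genes rest on a single probe set.

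No measured gene of an H4K20 methyltransferase was called, and of the monomethylase homeologs only kmt5a.L passed with the block. A morpholino blocks translation and leaves the mRNA in place, so these values do not check the depletion. The xSuv4-20h1 homeologs kmt5b.S (8.74 and 8.88 in double morphants against 8.35 and 8.36 in control morphants) and kmt5b.L (8.99 and 8.4 against 8.67 and 7.82) both differed by 0.45, with standard errors of 0.19 and 0.38, and were not called (blocked adjusted p = 0.07 and 0.13). The monomethylase gene kmt5a.L was at 8.38 and 8.93 in double morphants against 7.46 and 7.99 in control morphants (0.93, blocked adjusted p = 0.041). Its homeolog kmt5a.S differed by 0.35 (standard error 0.90, blocked adjusted p = 0.16). At the brightest probe set of kmt5a.S the difference was 0.10, and at another -0.05. The 19 measured genes of H4K20 methylation and heterochromatin hold no gene of xSuv4-20h2. None of these 19 was called without the block, and the median was -0.02. With it, kmt5a.L was higher and rbl1.L (-0.94) and the histone chaperone gene daxx.L (-0.69) were lower. Among 33 genes of Polycomb and chromatin remodelling, the deacetylase gene hdac2.S rose by 1.36 (standard error 0.31), and with the block eed.L (-1.01), eed.S (-0.71), both of the Polycomb subunit that binds trimethylated H3K27, and the remodeller gene smarca5.S (-0.87) were lower.

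Single genes of the early embryo had higher levels in double morphants, and most genes of this kind were not called. Of the POU-V genes, relatives of mammalian Oct4, pou5f3.3.L was at 5.66 and 5.23 in double morphants against 3.02 and 4.19 in control morphants and rose by 1.84 (standard error 0.39). With the block its local fdr was not under 0.2 (blocked adjusted p = 0.033). The Oct-25 gene pou5f3.2.L was at 9.98 and 11.1 in double morphants against 8.48 and 9.75 in control morphants (1.43, standard error 0.60, adjusted p = 0.297, blocked adjusted p = 0.031), and was higher in experiment 2 than in experiment 1 in both kinds of morphant. The third, pou5f3.1.L, differed by -0.31 (blocked adjusted p = 0.7), with opposite signs in experiments 1 and 2 (0.75 and -1.38). Its tested probe set was faint, and its bright one, at 12.39 in double and 12.49 in control morphants on average, differed by -0.09. By in situ hybridisation the paper reports ectopic Oct-25, no activation of Oct-60, and Oct-91 that looked normal in most embryos. By qRT-PCR on embryo sides it reports higher Oct-25 mRNA on the injected sides of double morphants and unaffected Oct-91. The paper does not tie Oct-60 and Oct-91 to the gene symbols used here. If pou5f3.3.L is the Oct-60 gene, its rise on the arrays differs from the in situ result. Of 50 early embryonic genes, 2 rose, 1 fell and 47 did not pass the test (median 0.10), against 2.41% higher and 3.19% lower of all genes. With the block 10 were higher and 4 lower, at a background of 7.18% and 8.19%. The oocyte gene zar1.S, at 5.69 and 4.45 in double morphants against 3.19 and 2.97 in control morphants, rose by 1.99 (standard error 0.44). Both zar1.S and pou5f3.3.L passed the filter only through the injected sides of double morphants, so the filter itself favours their rise. The genes vegt.L (11.05 and 10.88 in double morphants against 9.85 and 10.04 in control morphants, difference 1.02), the T-box gene eomes.L (1.60) and the Nodal co-receptor gene tdgf1.3.L (1.72) passed with the block only. The gene pou5f3.2.L was a candidate of the study from other assays and also stood, like tdgf1.3.L, in its list of the most raised genes on these arrays, so neither is independent evidence. The value listed there for Oct-25, 1.97, equals the injected difference minus the uninjected one, another measure than the 1.43 given here.

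Genes that mark the tissues of the neurula were called rarely, where 2.41% of all genes were called higher and 3.19% lower. None of 37 neural plate genes was called, and their differences lay between -0.70 and 0.64 (median -0.05). The same was true of 34 genes of neural crest and melanocytes (-0.82 to 0.74), of 16 genes of neurons (-1.42 to 1.51), of 28 genes of multiciliated cells and of 33 genes of muscle. Of 29 genes of forebrain and eye only tbx2.S fell, by 1.17 (standard error 0.29), to 6.02 and 6.90 in double morphants against 7.61 and 7.65 in control morphants, while the eye field genes rax.L (-0.16) and pax6.L (-0.03) were not called. Their standard errors were 0.33 and 0.19. Of 34 genes of midbrain, hindbrain and spinal cord, 27 had a negative difference, as had 4179 of all 8220 genes. Their median was -0.32 (-0.45 in experiment 1 and -0.09 in experiment 2), and only aldh1a2.L, whose probe sets disagree, was called. With the block, 7.18% of all genes were higher and 8.19% lower. Of the 28 genes of multiciliated cells, 4 were higher and 4 lower with it. None of the other lists named here had more than 2 members past the blocked threshold in either direction.

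Ionocytes, the cells of the larval skin that move ions and acid, gave calls between uninjected sides. None of its 24 genes was called between injected sides, where 5 were higher and 1 lower with the block (7.18% and 8.19% of all genes), and 9 were called higher between uninjected sides (1.42% of all genes). The carbonic anhydrase gene ca2.S was at 5.43 and 4.88 in double morphants against 3.49 and 2.51 in control morphants on the injected sides (difference 2.16, blocked adjusted p = 0.015), and at 7.26 and 6.47 against 4.55 and 2.90 on the uninjected sides (3.14, called). The other members higher with the block were slc26a4.3.S (1.37), ca12.L (1.23), atp6v0a4.L (1.22) and atp6v0d2.L (0.95), and each of these was called higher between uninjected sides as well. The homeolog slc26a4.3.L, which is not counted in the list, was called higher between injected sides (1.66).

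Single genes of the outer layers and of the ventral mesoderm and endoderm fell, where 3.19% of all genes were called lower and 2.41% higher. The cement gland gene agr2.S was at 8.21 and 9.32 in double morphants against 10.93 and 10.65 in control morphants (log2 fold change -2.03, standard error 0.40), and agr2.L differed by -1.22 (blocked adjusted p = 0.079). Of 41 epidermal genes, the keratin gene krt12.2.S fell by 1.48 (standard error 0.31), the claudin gene cldn6.2.S rose by 1.5 (standard error 0.28) and the other 39 were not called. For cldn6.2.S it was the injected sides of control morphants that stood apart (-0.98 from their uninjected sides, called). Of 44 genes of the early mesoderm, 2 fell and 0 rose, and with the block 6 were lower and 3 higher (8.19% and 7.18% of all genes). Both homeologs of foxf1, a gene of the lateral plate, fell: foxf1.L was at 6.34 and 7.04 in double morphants against 8.02 and 8.25 in control morphants (-1.44, standard error 0.26), and foxf1.S was at 4.49 and 5.25 against 6.15 and 6.42 (-1.41, standard error 0.29). The lateral plate gene hand1.L differed by -1.0 (blocked adjusted p = 0.048) and the endoderm and heart gene gata6.S fell by 1.31 (standard error 0.25), to 5.28 and 5.53 in double morphants against 6.56 and 6.87 in control morphants. Of 22 genes of blood and endothelium spib.L and the phagocyte oxidase gene cybb.L (-1.08, standard error 0.19) fell, and the list had the lowest median, -0.60. The mean of cybb.L was 2.76 in double and 3.84 in control morphants, so neither injected group reached the filter of 4. It passed only through the uninjected sides of double morphants (4.47). In pooled embryo sides fewer cells of a type and less RNA per cell cannot be told apart. The organizer gene gsc.S rose by 1.09 (standard error 0.23), the single called gene of 32 in its list. It was at 5.6 and 5.92 in double morphants against 4.80 and 4.55 in control morphants on the injected sides, and at 6.24 and 5.84 against 5.59 and 5.87 on the uninjected sides, so for gsc.S as well the control injected sides stood apart (-1.05 from their uninjected sides, called).

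**Figure D4:**
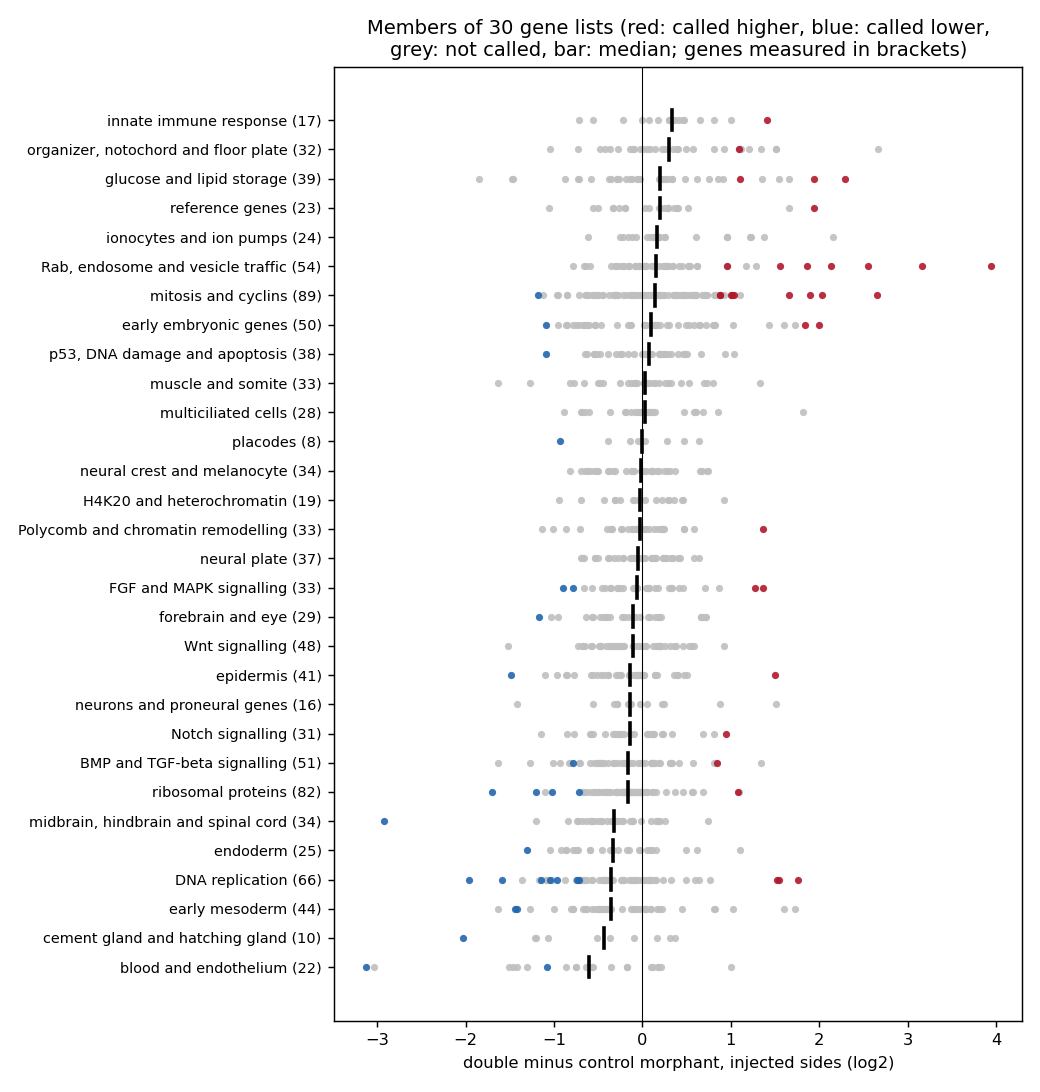
Difference of injected sides, double minus control morphants (log2, x axis), of the measured members of 30 gene lists, ordered by their median (black bar); red members were called higher, blue ones lower and grey ones were not called. The lists of mitosis, DNA replication and traffic hold 10, 10 and 7 called members, and those of neural plate, neural crest, neurons, muscle and multiciliated cells hold none. The traffic list includes genes already known from these arrays, so its count is not independent evidence.

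Signalling pathways showed few and scattered calls, where 2.41% of all genes were called higher and 3.19% lower. None of 48 Wnt genes was called. Among 51 BMP and TGF-beta genes smad2.L, a signal transducer, rose by 0.85 (standard error 0.14) and the target gene id2.L fell by 0.79 (standard error 0.18). Among 33 FGF and MAPK genes the kinase gene map2k1.L (1.28) and the phosphatase gene dusp5.S (1.36) rose, and the adaptor gene grb2.L (-0.79) and flrt3.L (-0.89), which encodes a membrane protein of the FGF pathway, fell. Between uninjected sides dusp5.S was called higher as well, by 0.87, and the difference between the comparisons (0.49) was not called. The transcription factor gene creb1.S, which stands in none of these lists, was at 11.04 and 11.70 in double morphants against 9.13 and 9.19 in control morphants (2.21, standard error 0.34). Of 38 genes of p53, DNA damage and apoptosis, plk2.L fell by 1.09 (standard error 0.25) and the other 37 were not called (median 0.08).

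Ribosomal protein genes leaned to the lower side by a small margin. Of 82, 67 had a negative difference, as had 4179 of all 8220 genes, and the median was -0.17 (-0.29 in experiment 1 and -0.03 in experiment 2). Against 2.41% higher and 3.19% lower of all genes, 1 rose, 4 fell and 77 did not pass the test. The largest, rpl27a.L, was at 6.2 and 6.26 in double morphants against 8.07 and 7.81 in control morphants (-1.70, standard error 0.19), but its other probe set differed by -0.02. The others were rps4x.S (-1.21, standard error 0.21), rpl21.L (-1.02, standard error 0.20) and rps12.S (-0.71). The tested probe set of rps12.S was faint, at 3.78 in double and 4.49 in control morphants on average, and its bright one, at 13.1 and 13.3, differed by -0.18. The homeolog rps12.L differed by 0.68 and was not called. The gene that rose, rps19.S (1.09), had a difference of -0.053 at its brightest probe set.

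Homeologs gave a second reading of many genes. Of the 460 called genes, 149 had a measured homeolog, and in 113 of these the homeolog differed in the same direction. Over all 1396 pairs, 66.3% had the same sign. Both members were called in 12 pairs, always in the same direction: 3 pairs were higher and 9 lower in double morphants. The higher pairs were cdc42se2, the S-adenosylmethionine sensor gene bmt2 (bmt2.L 0.89, bmt2.S 1.15) and ube2c, the ubiquitin-conjugating enzyme gene of mitotic exit (ube2c.L 0.92, ube2c.S 0.78). Lower pairs included mcm4, foxf1, gtf2a1, dtl, whose product marks replication factors for degradation (dtl.L -0.78, dtl.S -1.12), the deubiquitinase gene usp5 (usp5.L -0.99, usp5.S -0.90) and the dolichol synthesis gene dhdds (dhdds.L -1.46, dhdds.S -0.88). In 125 pairs a single member was called. Cross-hybridisation between homeologs was not tested. An example is spib.S at -0.17 beside spib.L at -3.13.

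The called genes were set against the uninjected sides of the same embryos. Between uninjected sides of double and control morphants, 203 genes were called (2.47%), of which 117 were higher (1.42%) and 86 lower (1.05%). No gene had a limma adjusted p under 0.05 there, with or without the block, and 128 (1.56%) and 125 (1.52%) had an unadjusted p under 0.05. Differences over 1 on the log2 scale were present in 612 genes (7.45%) between injected sides and in 121 genes (1.47%) between uninjected sides. Of the 198 higher genes, 167 had a positive difference between uninjected sides too, with a median of 1.22 between injected and 0.28 between uninjected sides, and of the 262 lower genes 238 had a negative one, with medians of -1.08 and -0.22 for the injected and the uninjected sides. These are 84.3% and 90.8% of the called genes, while over all genes 58.1% of those with a positive and 66.3% of those with a negative injected difference had the same sign between uninjected sides. The double morphant injected arrays lay above all 6 other arrays in 162 of the 198 genes and below all 6 in 229 of the 262, against 1000 and 959 of all 8220 genes. The control injected arrays lay below all others in 72 and above all others in 98 of them, against 338 and 491 of all genes. The called genes had already been selected for separating the injected groups. The difference between both comparisons was itself called in 262 genes (3.19%), and these include 82 of the 198 and 123 of the 262, but no gene had an adjusted p under 0.05 for it (237 and 297 genes, 2.88% and 3.61%, at an unadjusted p under 0.05).

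The side of origin mattered differently for single genes. Between the uninjected sides of both kinds of morphant trim7.L differed by 0.74, cdc42se2.S by 0.42 and fitm2.L by 0.06, and none of these was called. The largest increase, that of rilp.S, was called between uninjected sides as well, with a smaller difference of 1.41. Smaller differences were also called there for dusp5.S (0.87), kif20b.S (0.74), cdca8.L (0.72), acsl4.S (0.66), sort1.S (0.57) and incenp.L (0.43). Of the 198 higher genes, 27 were called higher between uninjected sides too. For creb1.S the uninjected sides of double morphants (10.68 and 11.23) and of control morphants (10.52 and 11.17) resembled the injected sides of double morphants, and the injected sides of control morphants stood apart. For cdca8.L the uninjected sides (8.71 and 9.07 in double morphants, 8.14 and 8.21 in control morphants) lay between both injected groups. The decrease of ankrd37.L was also present between uninjected sides, at 7.82 and 6.78 in double morphants against 10.10 and 9.01 in control morphants (-2.25, called), as were those of foxf1.L (-0.97) and foxf1.S (-1.02). The decreases of ankrd10.S (-0.84) and of the tested probe set of aldh1a2.L (-0.99) were called there as well. On the uninjected sides agr2.S, krt12.2.S and cybb.L were measured higher in double than in control morphants, by 0.90, 0.84 and 0.80, the reverse of the injected sides (agr2.S was not called there). The gene cybb.L passed the filter only through the uninjected sides of double morphants, where it was highest. The tetraspanin gene tspan1.S rose by 1.80 between injected sides and differed by -0.60 between uninjected sides.

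**Figure D5:**
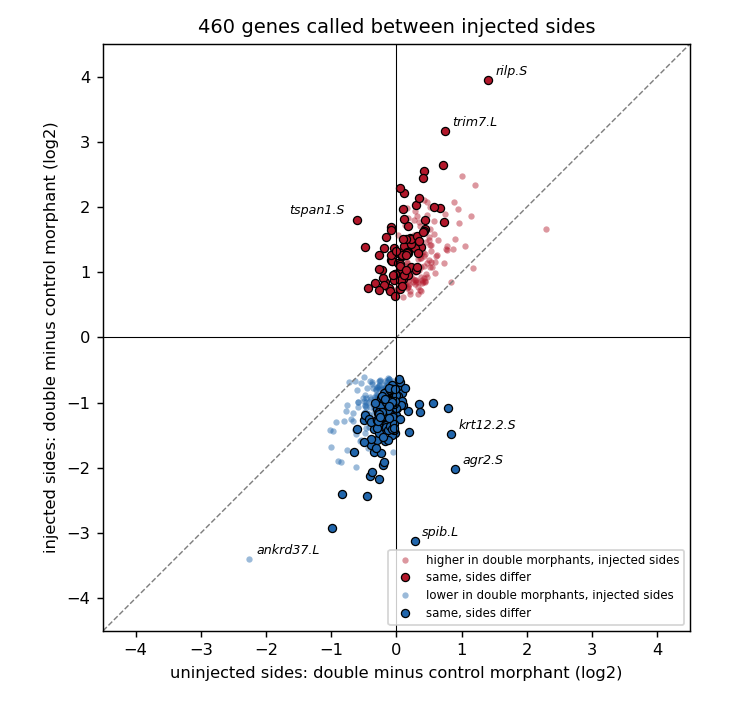
Difference of double minus control morphants (log2) between uninjected sides (x axis) and between injected sides (y axis) for the 460 genes called between injected sides; red genes were higher and blue genes lower, outlined points had a called difference between both comparisons, and the dashed line marks equal differences. Most points lie close to 0 on the x axis, with ankrd37.L as an exception near the dashed line.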

How the data were processed

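Expression values of 32635 probe sets on 8 arrays were used as the authors deposited them, on the log2 scale after GCRMA (version not given in the sources used here); 15505 probe sets have 1 gene, 279 several and 16851 none in the platform table. Genes were kept with a group mean of at least 4 and a variance above 0, in place of present calls, and by the most variable probe set. One model with 4 group means was fitted with limma 3.58.1 in R 4.3.3 (4 residual degrees of freedom), and calls were made from the moderated statistic by the locfdr method, rewritten here, with a limit of 0.2 (120 bins, spline with 7 degrees of freedom). Benjamini-Hochberg adjusted p-values cover all 8220 genes. Replicate numbers were read as the experiments of the supplementary methods; deviations correlated by 0.50 to 0.80 between all group pairs. Named were the 20 largest called changes each way, called list members with POU-V and H4K20 genes, and their homeologs, of which the text gives a part. Members and lists were chosen with earlier results of these data known. The calling was tested on simulated data. Alternatives were other normalizations, filters, probe sets, nulls, thresholds and blocks and leaving out each array.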

Additional observations from a re-analysis of the deposited data

Results flagged for a closer look

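The difference between double and control morphants was larger on the injected than on the uninjected sides, with a called difference between both comparisons, for many of the genes described above. No gene passed an adjusted p of 0.05 for it. The paper's list of its most raised genes gives the same values for rilp, trim7, fitm2, cdc42se2 and creb1, so these repeat its result. The value of tspan1.S equals that of a gene listed there as MGC81526. For risen genes, the injected difference exceeded the uninjected one on the log2 scale by 2.53 for rilp.S, 2.42 for trim7.L, 2.40 for tspan1.S, 2.23 for fitm2.L, 2.13 for cdc42se2.S, 2.1 for creb1.S, 1.94 for cdca8.L, 1.79 for dynlt3.L, 1.73 for ccnb3.S, 1.42 for sort1.S, 1.22 for incenp.L, 0.89 for tpx2.L and 0.78 for bmt2.L, and also by 1.46 for vegt.L, which was not called between injected sides. For replication genes and e2f1.L it was -1.76 in cdc7.L, -1.51 in mcm6.2.S, -1.42 in mcm4.S, -1.14 in mcm4.L, -1.03 in e2f1.L, -1.01 in dtl.S and -0.87 in gins1.S.

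For the other fallen genes the values were -3.41 in spib.L, -2.92 in agr2.S, -2.32 in krt12.2.S, -1.97 in itpa.S, -1.90 in gtf2a1.L, -1.88 in cybb.L, -1.72 in gfpt2.L, -1.72 in haus4.L, -1.56 in ankrd10.S, -1.44 in dhdds.L, -1.39 in rpl27a.L, -1.02 in rps4x.S, -0.98 in rpl21.L and -0.67 in usp5.S. For aldh1a2.L, whose probe sets disagree in direction, it was -1.93 at the probe set tested. The genes cybb.L, haus4.L and, among the risen ones, fitm2.L passed the filter only through a single group in which they were high. The filter itself favours their differences. The genes agr2.L (-1.98) and hand1.L (-1.25) had a called difference of this kind without a call between injected sides.

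Probe sets with no gene or with several genes, which no comparison above uses, also carried differences: of 8713 above the filter, 221 were higher and 224 lower in the injected sides of double morphants (5.11% together), and 34 had a limma adjusted p under 0.05. The largest increase, of 4.92 on the log2 scale, was at 8.15 and 8.47 in double morphants against 3.11 and 3.67 in control morphants.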

How the results depend on the processing

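The counts of 198 higher and 262 lower genes between injected sides depended on the calling rule. They were 106 and 118 with the replicate block, 119 and 101 with the block on only the 4 arrays compared, 618 and 770 with a theoretical null, 0 and 0 on z values, 19 and 15 at a limma adjusted p under 0.05, 437 and 532 at one under 0.2, and 702 and 837 with no filter on low values. Added after seeing the data, the replicate block with an adjusted p under 0.05 gave 590 and 673, and embryo pools as a random block gave 166 lower genes. Leaving out 1 array gave 57 to 197 higher genes (57 without double morphant replicate 2, 90 without control morphant replicate 1) and 85 to 130 lower genes, with a loss for each of the 4 arrays. Of 88 named called genes, 29 kept their call without each array, among them rilp.S, trim7.L, cdca8.L, fitm2.L, creb1.S, incenp.L, cdc7.L, itpa.S and gfpt2.L, while 8 (cdc42se2.L, tspan1.S, fen1.L, cdc6.S, id2.L, grb2.L, dmrta1.S and rps4x.S) lost theirs whichever array was left out, and spib.L, mcm4.S, mcm4.L and e2f1.L without 3 of the arrays. With the brightest probe set per gene the differences reversed to 0.58 for aldh1a2.L, 0.25 for eif4e2.L and -0.053 for rps19.S.

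The 203 calls between uninjected sides became 718 with no filter, 64 with a theoretical null, 25 on z values, 126 with the random block, 0 at adjusted p thresholds of 0.05 and 0.2 and with the block at 0.05, and 38 to 380 without 1 array. The 262 calls of the difference between sides became 60 with the replicate block, 1184 with no filter, 132 with the random block, 0 on z values, at both thresholds and with the block at 0.05, and 60 to 357 without 1 array. The causes were not tested.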
